A study of Mus musculus with 10 samples.

Results

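The genes described here carry out hepatic lipogenesis, the elongation and desaturation of fatty acids, and the esterification of fatty acids into triglyceride. They were a list of 32 genes named by symbol, all 32 of which were found among the 19764 genes of the count table and passed the filter on low counts with 12558 genes in all. The list was split into 13 genes of synthesis and its control, 10 of elongation and desaturation, and 9 of esterification. Liver RNA came from female GRMAC mice, whose floxed glucocorticoid receptor alleles are combined with LysM-Cre, and from GRflox littermates, with the same floxed alleles and no Cre. Both groups had been fasted for 8 h from ZT12, the start of the dark, active phase, and each held 5 libraries. LysM-Cre acts in macrophages and other myeloid cells, so hepatocytes were not its target, and the Cre itself cannot be told apart from the loss of the receptor because the controls lacked it. No fed mice were included, ages are not given here, and the labels do not state that each library is a different animal, so p-values measure the spread between these libraries.

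Fatty acid synthesis in the liver turns sugar into fat after a meal. Citrate leaves the mitochondria, is split to acetyl-CoA and is built into palmitate, which is then lengthened, desaturated and attached to glycerol. Insulin and carbohydrate drive the pathway through the transcription factors SREBP1c and ChREBP, and fasting lowers it, whereas some lipins and desaturases are known to respond to fasting signals as well.

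The GRflox libraries held 25697931 to 27692528 counts and the GRMAC libraries 23258884 to 26116916, so that 3 counts corresponded to 0.111 to 0.129 CPM (library-scaled counts, by TMM, written CPM throughout). Hepatocyte markers were abundant, with 2309784 to 3007843 Alb counts per library. The markers that define adipocytes were near 0 in every library: Adipoq had 0 to 6 counts, Plin1 0 to 5, Aqp7 0 to 3, and Lep and Retn at most 1. The 5 adipocyte-list genes that passed the filter (Plin4, Car3, Cidec, Fabp4 and Pparg) are not specific to adipocytes, and their summed level was 358 to 616 CPM in GRflox and 346 to 407 CPM in GRMAC. Whole liver was sequenced, so fewer cells of a type and less RNA per cell cannot be told apart.

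Promoter sequence was examined for motifs of factors known to act on this pathway. RefSeq windows of 250 bases before a transcript start (build GRCm38.p6) were found for 26 of the 32 genes, 37 windows in all. The letters searched on both strands were TCACNCCAC for the SREBP element, CACGTG for the E-box that ChREBP and USF can bind, CCAAT for the NF-Y box, GGGCGG for the GC box and AGAACA for 1 arm of the 2-armed glucocorticoid response element. The NF-Y box was in 16 of the 37 windows (43.2%) and in 33.8% of all 32851 windows. The GC box was in 20 windows (54.1%) against 32.7% of all windows, the E-box in 5 (13.5%) against 6.02%, the arm of the glucocorticoid element in 6 (16.2%) against 16.1%, and the SREBP element in 1 (2.70%) against 1.05%. Each window of a gene with several starts was counted, and among such genes only the windows of Elovl2 overlapped. A match of letters is a description, not a binding site.

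The windows of 3 genes are shown: Fasn, whose level the others were compared with, and Srebf1 and Mlxipl, which encode SREBP1 and ChREBP. A relation of the windows to the gene values below was not tested. All run 5′ to 3′ on the strand of the gene, and capitals mark the motif letters. Fasn lies on the minus strand at chr11:120824548-120824797, with the NF-Y box on both strands and the 2 copies nearest the start overlapping. The Srebf1 window is the nearest to the start of the counted transcript, on the minus strand at chr11:60220628-60220877, with the GC box in both directions. Other Srebf1 windows, not shown, lie at chr11:60210472-60210721, with 1 NF-Y box and 2 GC boxes, and at chr11:60222582-60222831, with 1 NF-Y box. Which window belongs to the SREBP1c transcript was not examined. The Mlxipl window, on the plus strand at chr5:135106641-135106890, was the 1 window of the 37 with the SREBP element and also holds 1 arm of a glucocorticoid element. Another Mlxipl window, not shown, at chr5:135089640-135089889, has neither of these but 1 E-box, 1 NF-Y box and 2 GC boxes.
Fasn: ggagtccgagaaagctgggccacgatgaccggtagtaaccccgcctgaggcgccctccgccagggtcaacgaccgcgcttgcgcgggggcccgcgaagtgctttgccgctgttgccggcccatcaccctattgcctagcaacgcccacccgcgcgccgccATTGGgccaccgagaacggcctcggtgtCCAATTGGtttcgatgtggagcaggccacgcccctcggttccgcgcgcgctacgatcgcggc
Srebf1: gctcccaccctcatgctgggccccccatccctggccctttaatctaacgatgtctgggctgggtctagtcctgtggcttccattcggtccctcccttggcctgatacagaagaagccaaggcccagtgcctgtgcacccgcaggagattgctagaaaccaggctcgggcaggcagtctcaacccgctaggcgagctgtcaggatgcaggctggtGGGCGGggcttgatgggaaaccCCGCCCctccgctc
Mlxipl: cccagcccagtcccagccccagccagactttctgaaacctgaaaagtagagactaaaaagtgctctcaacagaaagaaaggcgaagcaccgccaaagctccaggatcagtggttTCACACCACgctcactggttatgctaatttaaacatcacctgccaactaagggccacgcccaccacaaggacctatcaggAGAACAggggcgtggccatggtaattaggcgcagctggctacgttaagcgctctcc

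Per kilobase of exon, the 32 genes covered a wide range of levels. Whether reads in introns were counted is not given in the sources used here; if they were, levels per exonic length and their order would be overstated for genes with long introns. The highest were Scd1, the stearoyl-CoA desaturase of hepatocytes, at 376 ± 149 RPKM in GRflox and 506 ± 149 RPKM in GRMAC (SD, n = 5), and Elovl5, an elongase of polyunsaturated fatty acids, at 377 ± 44.8 and 319.7 ± 72.2 RPKM. These 2 leading genes did not differ from each other beyond their spread in GRflox. Elovl2, which lengthens long polyunsaturated fatty acids, followed at 270.3 ± 17.3 and 246 ± 13.8 RPKM, and Khk, the ketohexokinase that commits fructose to the liver, at 206 ± 16.8 and 219 ± 20.8 RPKM. Fasn, the fatty acid synthase itself, was the 20th of the 32 at 21.0 ± 1.74 and 17.7 ± 2.91 RPKM. Scd2, a desaturase known mainly from brain and other tissues, was the lowest at 0.731 ± 0.112 and 0.938 ± 0.0773 RPKM.

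**Figure D1:**
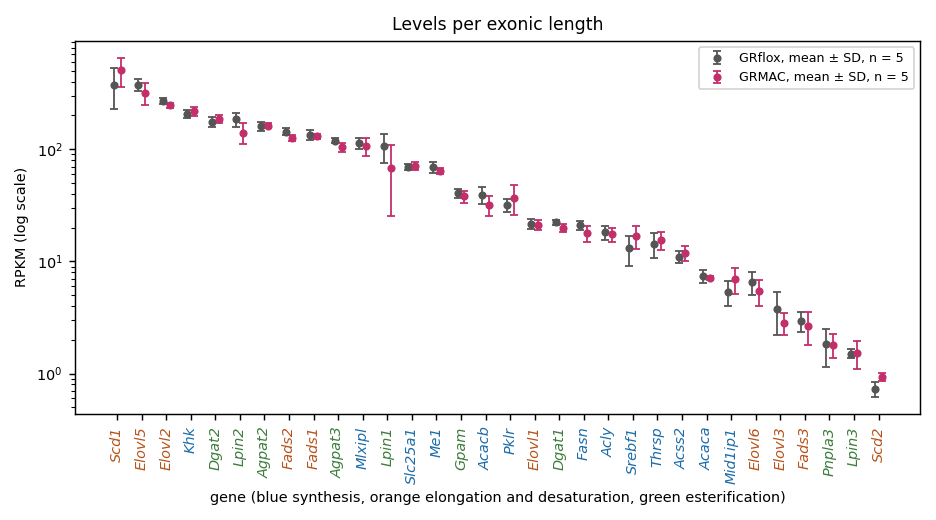
RPKM (log scale) of the 32 genes in order of level, as mean ± SD over 5 GRflox and 5 GRMAC libraries, with gene names coloured by class. Levels run from Scd1 (376 and 506 RPKM) to Scd2 (0.731 and 0.938 RPKM), and the symbols of the genotypes lie close together for most genes.

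No gene of the 32 passed the test between the genotypes. With edgeR's quasi-likelihood test and Benjamini-Hochberg adjustment over all 12558 genes, 0 of 32 were called, beside 0.175% of all tested genes, and the lowest adjusted p was 0.183. DESeq2 and limma-voom on the same counts also called 0 of 32, where they called 3.63% and 0.175% of all genes, and 0 of 32 had an adjusted p under 0.05 in the authors' deposited table, against 3.33% of the genes with a value there (lowest 0.0839, Fads2). At an unadjusted p under 0.05 there were 6 of 32 (18.8%), near the 16.3% of all tested genes. There were 8 with DESeq2, against 17.0% of all genes, and 6 with limma-voom, against 16.2%. With edgeR this count was 11 without GRMAC 4 (16.4% of all genes), 9 without GRflox 4 (17.5%) and 4 without GRMAC 2 (15.8%). Of the 6 with edgeR on all libraries, 5 were lower in GRMAC (Fasn, Fads2, Agpat3, Lpin2 and Dgat1), where 7.75% of all genes were. The other 1 was higher (Scd2), where 8.58% were. None of the 32 separated the genotypes without overlap, against 4.05% of all genes.

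The log2 fold changes ran from −0.66 (Lpin1) to 0.43 (Scd1), with 20 negative and 12 positive (Pnpla3, at −0.01, turned positive when libraries were scaled by their totals alone). Their median was −0.05, beside 0.00 over all genes tested. Class medians were 0.03 for synthesis (−0.03 without GRflox 1), −0.14 for elongation and desaturation, and −0.09 for esterification. In 21 of the 32 genes the 95% interval of the difference lay within a change of 1.5-fold in either direction. For the other 11 it reached past that size on 1 side, as for Lpin1, Scd1 and Elovl3, so a change of 1.5-fold in that direction lay within the interval.

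**Figure D2:**
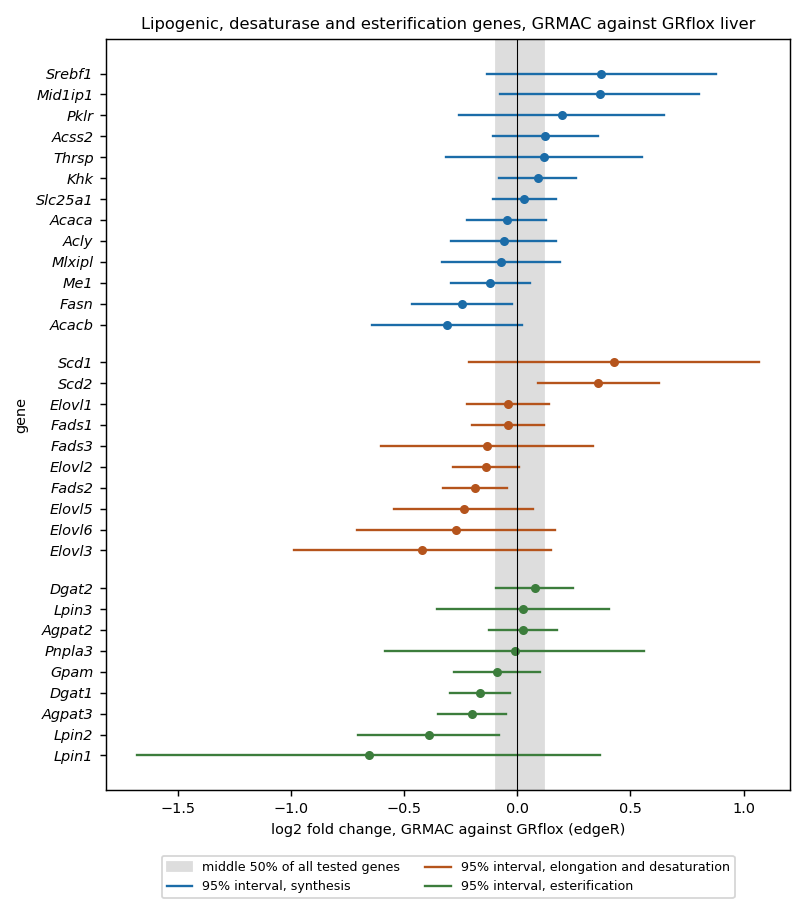
Log2 fold change of GRMAC against GRflox (points) with its unadjusted 95% interval (lines) for the 32 genes, by class; the grey band holds the middle 50% of all tested genes. Of the 32 intervals only those of Fasn, Scd2, Fads2, Dgat1, Agpat3 and Lpin2 lie on 1 side of 0, and none of these genes passed after adjustment over all genes.

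Among the enzymes of synthesis, Fasn (NM_007988, mm10 chromosome 11, 120805958 to 120824547) had the lowest p. It was at 198, 192, 222, 208 and 235 CPM in GRflox 1 to 5 and at 203, 155, 145, 212 and 176 CPM in GRMAC 1 to 5. GRMAC 2, 3 and 5 lay below every GRflox library, while GRMAC 1 and 4 lay among them. The means were 211 ± 17.5 and 178 ± 29.2 CPM (SD, n = 5), a log2 fold change of −0.24 ± 0.10 SE that did not pass with edgeR (adjusted p = 0.261), with an interval from −27.5% to −1.50%. Acacb (chromosome 5, 114165518 to 114250758), the acetyl-CoA carboxylase whose malonyl-CoA restrains fatty acid entry into mitochondria, was at 389, 298, 346, 249 and 382 CPM in GRflox 1 to 5. In GRMAC 1 to 5 it was at 334, 230.1, 238, 319 and 223 CPM. The low GRMAC libraries were the same 3 as for Fasn, and GRflox 4 was the lowest of the controls. Its log2 fold change was −0.31 ± 0.15 (edgeR, adjusted p = 0.332).

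The other enzymes that supply acetyl-CoA and malonyl-CoA differed less. Acaca, the cytosolic carboxylase, had means of 66.7 ± 9.24 and 64.6 ± 2.80 CPM. Acly, ATP citrate lyase, had 79.7 ± 11.03 and 76.4 ± 10.7 CPM, and Slc25a1, the citrate carrier, had 115 ± 6.64 and 118 ± 9.19 CPM. Acss2, which makes acetyl-CoA from acetate, was at 32.1 ± 4.01 and 35.0 ± 5.34 CPM, and Me1, the malic enzyme that yields NADPH, at 229 ± 26.0 and 211 ± 14.8 CPM. The log2 fold changes of these 5 lay between −0.12 (Me1) and 0.12 (Acss2). Of the sugar-handling genes, Khk had 259 ± 21.1 and 275 ± 26.1 CPM, and Pklr, liver pyruvate kinase, 89.2 ± 12.02 and 102 ± 30.6 CPM. Pklr spread more in GRMAC, from 58.3 CPM in GRMAC 4 to 142 CPM in GRMAC 2.

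Of the regulators, Srebf1 (chromosome 11, 60199089 to 60220604) was at 52.1, 67.7, 44.8, 78.4 and 37.6 CPM in GRflox 1 to 5 and at 72.9, 99.0, 62.6, 54.0 and 74.3 CPM in GRMAC 1 to 5. The genotypes overlapped: GRMAC 2 was the highest of all, GRflox 4 the next, and GRflox 5 the lowest. The log2 fold change was 0.37 ± 0.22 (edgeR, adjusted p = 0.451), opposite in sign to that of Fasn, and its interval ran from −8.87% to 83.6%. Mlxipl, which encodes ChREBP, had 408 ± 44.8 and 388 ± 70.8 CPM (log2 fold change −0.07). Mid1ip1, an activator of acetyl-CoA carboxylase, had 10.8 ± 2.81 and 13.96 ± 3.53 CPM (0.36), and Thrsp, its relative that responds to thyroid hormone, had 18.1 ± 4.54 and 19.7 ± 3.67 CPM (0.12). One count per gene does not separate the SREBP1a and SREBP1c transcripts of Srebf1, nor the ChREBP isoforms of Mlxipl.

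Among desaturases, the stearoyl-CoA desaturase Scd1 (chromosome 19, 44394450 to 44407709) varied widely between libraries. It was at 1592, 1764, 3067, 1291 and 1376 CPM in GRflox 1 to 5 and at 2560.2, 1404, 2754, 3346 and 2159 CPM in GRMAC 1 to 5. GRflox 3 stood with the high GRMAC libraries and GRMAC 2 with the low GRflox libraries. The log2 fold change of 0.43 ± 0.29 did not pass (edgeR, adjusted p = 0.498), and it was 0.70 without GRflox 3 (adjusted p = 0.219) and 0.19 without both GRflox 4 and GRMAC 4 (adjusted p = 0.796). Scd2 (chromosome 19, 44293676 to 44306862) was at 3.36, 4.70, 3.88, 4.54 and 3.47 CPM in GRflox 1 to 5. In GRMAC 1 to 5 it was at 5.04, 4.43, 5.44, 5.46 and 5.22 CPM. All GRMAC libraries except GRMAC 2 lay above all GRflox libraries (log2 fold change 0.36 ± 0.12, edgeR adjusted p = 0.185). Scd1 and Scd2 are related in sequence and how shared reads were counted is not stated. GRMAC 4 was the highest library and GRMAC 2 the lowest GRMAC library for both genes, whereas GRflox 3, the highest GRflox library for Scd1, had less Scd2 than GRflox 2 and GRflox 4. The part of shared reads in the Scd2 values was not tested.

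**Figure D3:**
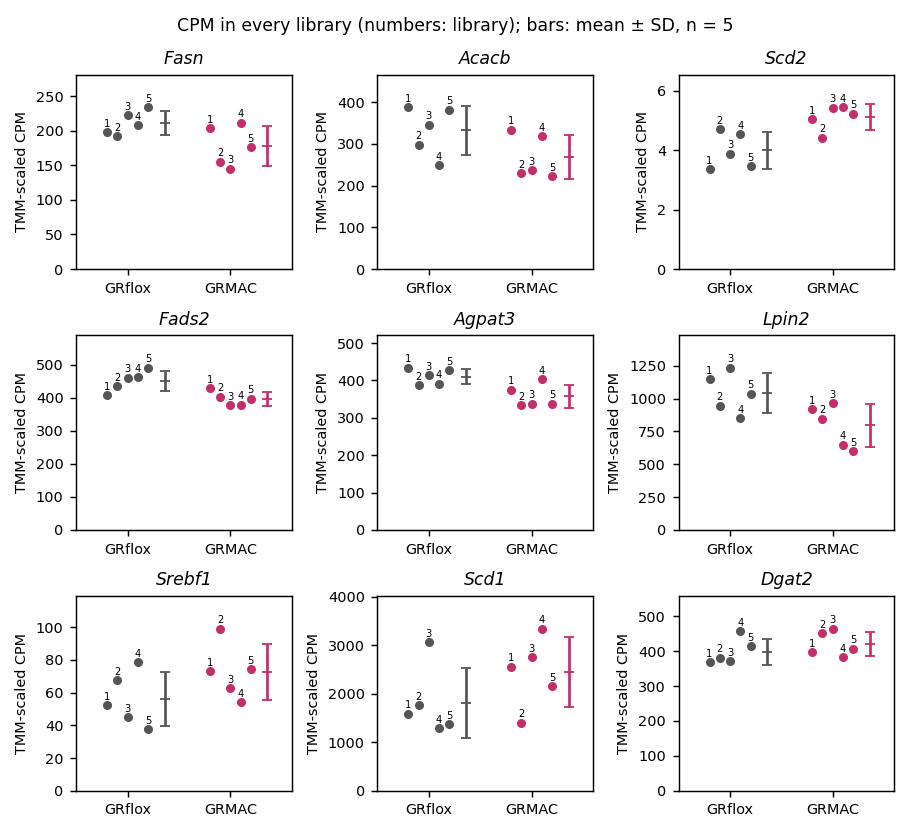
TMM-scaled CPM of 9 genes in each library (points, numbered by library) with mean ± SD (bars, n = 5) in GRflox and GRMAC, on axes that start at 0. The genotypes overlap for all 9 genes, as for Fasn with 192 to 235 CPM in GRflox and 145 to 212 CPM in GRMAC.

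The fatty acid desaturases Fads1 and Fads2 make the long polyunsaturated fatty acids. Fads2 (delta-6 desaturase, chromosome 19, 10064164 to 10101503) was at 408, 436, 461, 463 and 491 CPM in GRflox 1 to 5 and at 430.0, 404, 377, 379.7 and 397 CPM in GRMAC 1 to 5. GRMAC 1 was above GRflox 1, and the other GRMAC libraries were below every control. The log2 fold change was −0.18 ± 0.07 (edgeR, adjusted p = 0.192; DESeq2, adjusted p = 0.0763). Fads1, the delta-5 desaturase, had 463 ± 46.0 and 449.8 ± 23.4 CPM (−0.04), and Fads3, a desaturase of sphingoid bases, had 10.8 ± 2.22 and 9.86 ± 3.25 CPM (−0.13).

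All 5 elongases had a negative log2 fold change and none passed; Elovl1 turned positive without GRMAC 2 or GRflox 5 and under the correction for GC content and length. Elovl5 was lower in the means, at 1048 ± 125 and 889 ± 201 CPM (−0.24), and its GRMAC libraries ranged from 686 CPM in GRMAC 3 to 1183 CPM in GRMAC 4. Elovl2 had 1038 ± 66.4 and 944 ± 52.9 CPM (−0.14). Elovl6, which lengthens palmitate to stearate, had 39.0 ± 8.86 and 32.3 ± 8.36 CPM (−0.27), and Elovl1, of very long saturated chains, 27.1 ± 2.69 and 26.4 ± 2.57 CPM (−0.04). Elovl3, known in liver for its rhythm and its higher level in males, was low at 7.12 ± 3.001 and 5.33 ± 1.19 CPM (−0.42), and the highest value was 12 CPM in GRflox 5. Its interval ran from −49.6% to 10.8%.

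In esterification, the acyl chain is attached to glycerol-3-phosphate by Gpam, then by the Agpat enzymes, phosphate is removed by lipins and the final chain is added by the Dgat enzymes. Agpat3 (chromosome 10, 78271563 to 78351700), an acyltransferase with a preference for polyunsaturated chains, had the lowest p of the 32. It was at 434, 387, 413, 391 and 427 CPM in GRflox 1 to 5 and at 375, 333, 338, 403 and 338 CPM in GRMAC 1 to 5. GRMAC 4 lay among the controls and the other GRMAC libraries lay below them. The log2 fold change was −0.20 ± 0.07 (edgeR, adjusted p = 0.183; DESeq2, adjusted p = 0.0816), with an interval from −21.4% to −3.48%. Gpam had 155 ± 13.6 and 145 ± 18.9 CPM, and Agpat2, another enzyme of that step, 238 ± 22.5 and 242 ± 10.4 CPM.

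The lipins are phosphatidate phosphatases, and Lpin1 and Lpin2 are known to be raised in liver by fasting. Lpin2 (chromosome 17, 71183978 to 71249818) was at 1149, 947, 1234, 849.9 and 1036 CPM in GRflox 1 to 5 and at 918, 846, 966, 649 and 599 CPM in GRMAC 1 to 5. GRMAC 4 and GRMAC 5 were the lowest, GRMAC 2 lay just under the lowest control, and GRMAC 1 and 3 lay among the controls. Its log2 fold change was −0.39 ± 0.14 (edgeR, adjusted p = 0.202). Lpin1, named after its values were seen, was at 817, 466, 726, 398 and 569 CPM in GRflox 1 to 5 and at 623, 151, 642, 271 and 201 CPM in GRMAC 1 to 5. GRMAC 2, 4 and 5 lay below every control, whereas GRMAC 1 and 3 lay in their upper range. This was the widest spread of the 32 genes, 5.40-fold from lowest to highest library, and the log2 fold change of −0.66 ± 0.45 did not pass (edgeR, adjusted p = 0.512). Lpin3 was low, at 5.21 ± 0.477 and 5.30 ± 1.48 CPM.

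For the last step, Dgat2 (chromosome 7, 99153663 to 99182713), the acyltransferase tied to newly made fatty acids, was at 369, 381, 371, 458 and 414 CPM in GRflox 1 to 5 and at 397, 452, 464, 383 and 407 CPM in GRMAC 1 to 5. The genotypes covered the same range (log2 fold change 0.08 ± 0.08, edgeR adjusted p = 0.673), and the interval ran from −6.23% to 18.8%. Dgat1, the unrelated enzyme of the same reaction, had 42.0 ± 1.95 and 37.5 ± 2.83 CPM (−0.16 ± 0.06, edgeR adjusted p = 0.204). Pnpla3, a lipid droplet protein under SREBP1c control, was at 2.40 ± 0.902 and 2.38 ± 0.560 CPM.

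The genes differed in how far the 10 libraries lay apart. The ratio of the highest to the lowest library was 2.59 for Scd1, 2.63 for Srebf1, 2.43 for Pklr and 3.29 for Pnpla3, but only 1.22 for Slc25a1 and Fads1 and 1.26 for Dgat2. Pklr, Srebf1, Mlxipl and Acss2 were all highest in GRMAC 2. GRMAC 4 was the lowest library for Pklr, Mlxipl, Khk, Slc25a1 and Fads3, and it was the highest for Scd1, Scd2, Gpam, Elovl5 and Lpin3.

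**Figure D4:**
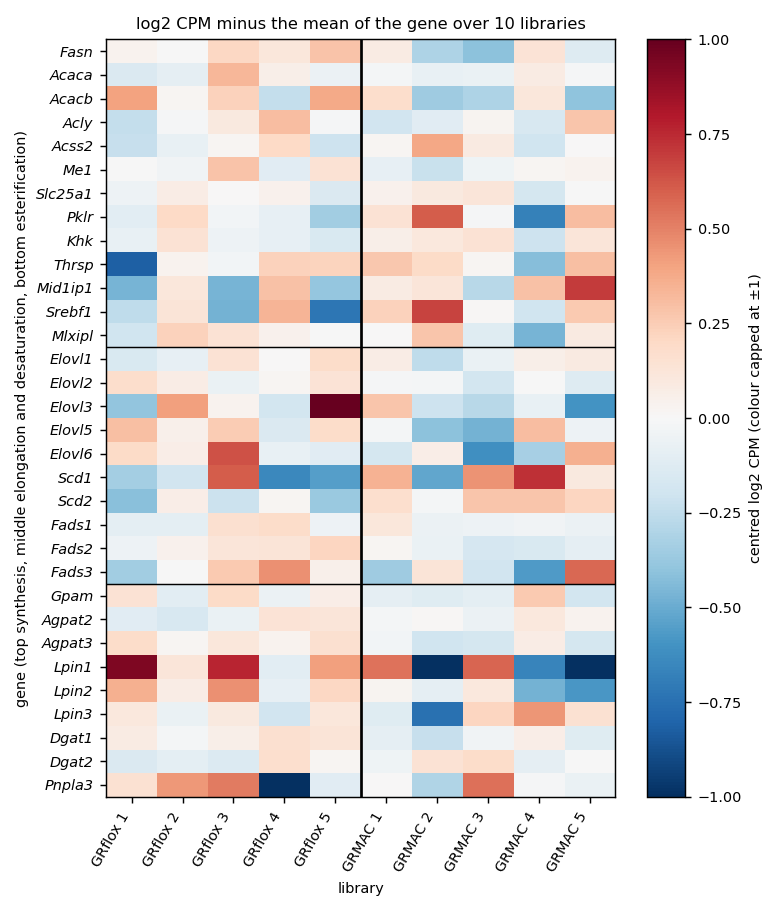
Log2 CPM of the 32 genes in the 10 libraries minus the gene's mean (red higher, blue lower, colour capped at ±1), with GRflox left and GRMAC right of the vertical line. Lpin1, Pnpla3, Elovl3, Srebf1 and Scd1 have the highest ratios of the highest to the lowest library, and no class has 1 colour throughout a genotype.

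To describe how the genes varied together, each was correlated with Fasn over the 10 libraries (log2 CPM, 31 relations, 2-sided permutation tests with 100000 resamples). Pearson's r was positive for 17 genes and negative for 14. Agpat3 had the strongest relation, with r = 0.86 (permutation p = 0.00151, adjusted p = 0.0468) and Spearman's rho = 0.76 (permutation p = 0.0145, adjusted p = 0.122). Elovl5 had r = 0.84 (permutation p = 0.00375, adjusted p = 0.0581) and rho = 0.68 (permutation p = 0.0354, adjusted p = 0.122), and Acacb had r = 0.76 (permutation p = 0.00993, adjusted p = 0.0770) and rho = 0.70 (permutation p = 0.0300, adjusted p = 0.122). Without GRMAC 2 and GRMAC 3, the libraries farthest from the median of Fasn, r was 0.74 for Agpat3, 0.43 for Elovl5 and 0.65 for Acacb. After the genotype means were subtracted r was 0.78 for Agpat3 (permutation p = 0.00983, adjusted p = 0.0950) and none of the 31 passed.

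On the opposite side, Khk had r = −0.76 (permutation p = 0.00924, adjusted p = 0.0770) and rho = −0.79 (permutation p = 0.00863, adjusted p = 0.122). Srebf1 had r = −0.64 with Fasn (permutation p = 0.0446, adjusted p = 0.153) and rho = −0.60 (permutation p = 0.0723, adjusted p = 0.178), and r was −0.74 without GRMAC 2 and GRMAC 3. Scd1 had r = −0.02 (permutation p = 0.953, adjusted p = 0.953) and rho = −0.01 (permutation p = 1, adjusted p = 1). In all, 9 of 31 relations had a permutation p under 0.05, 1 passed adjustment by r and 0 by rho. The relation with Agpat3 no longer passed when GRflox 2, 3 or 5 or GRMAC 1, 2 or 5 was left out, since 0 relations passed then. The labels give no batch, and within a genotype 5 libraries are too few for a correlation.

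**Figure D5:**
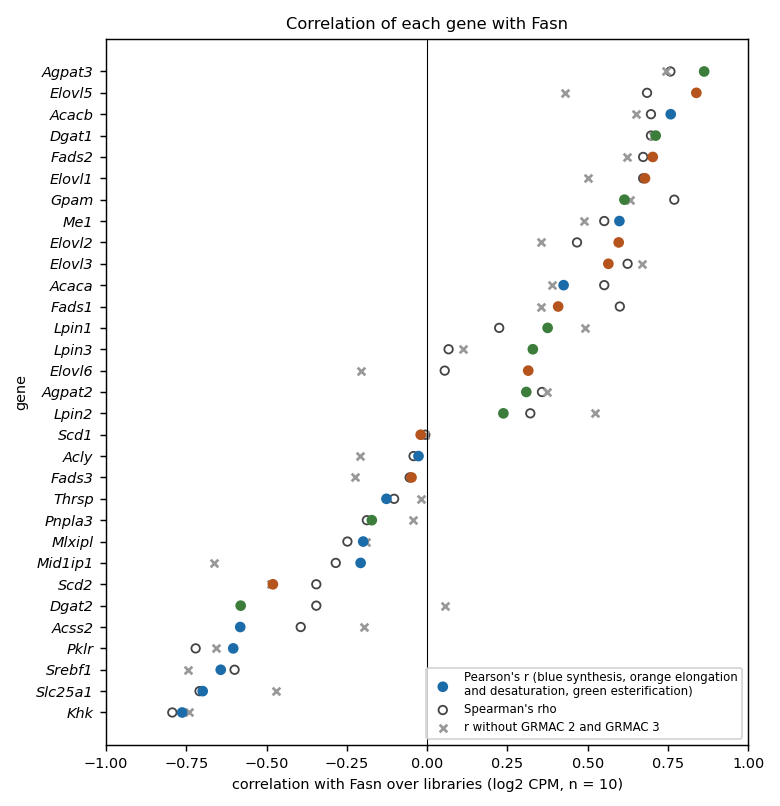
Correlation of 31 genes with Fasn over 10 libraries: Pearson's r (filled, coloured by class), Spearman's rho (open) and r without GRMAC 2 and GRMAC 3 (crosses). Agpat3 (r = 0.86) and Khk (r = −0.76) are at the ends, and Scd1 (r = −0.02) is near 0.

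Other genes of the pathway gave a like picture: 0 passed with edgeR in any of 4 lists. Of 17 tested genes of carbon and NADPH supply, 12 were negative (median −0.05). Pdk2, a kinase that inhibits pyruvate dehydrogenase, had 89.6 ± 9.31 and 80.9 ± 5.60 CPM (log2 fold change −0.15 ± 0.07, edgeR adjusted p = 0.344).

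Of 20 genes that control SREBP1c, ChREBP and LXR, 13 were positive (median 0.06), with 3 at an unadjusted p under 0.05, near the 16.3% of all tested genes. Nr1h3, which encodes the oxysterol receptor LXR alpha, an activator of Srebf1, was at 125, 122, 118, 120.0 and 126 CPM in GRflox 1 to 5. In GRMAC 1 to 5 it was at 115, 107, 110.2, 109 and 106 CPM. All GRMAC libraries lay below all controls (log2 fold change −0.16 ± 0.05, edgeR adjusted p = 0.145). The gene was called lower in the authors' deposited table (−0.16, adjusted p = 0.0204) and by DESeq2 here (adjusted p = 0.0153), opposite in sign to Srebf1. In this list 2 of 20 genes separated the genotypes without overlap, against 4.05% of all genes. The other was Nr1h2, also lower in GRMAC (−0.12 ± 0.05, edgeR adjusted p = 0.261). Nr1h3 is also expressed in macrophages, and the Kupffer cell list (14 genes) had a summed level of 448 to 595 CPM in GRflox and 507 to 614 CPM in GRMAC. Of those 14 genes 9 were positive and 5 negative, and edgeR called Cd163 alone (−3.22, adjusted p = 2.55e-05). DESeq2 and the authors' deposited table each called 3 of the 14, with Cd163 and Cd207 lower and Cd5l higher. The part of these cells in the Nr1h3 level was not tested. Prkaa2, a catalytic subunit of AMPK, was at 72.6 ± 5.29 and 80.5 ± 3.03 CPM (0.15 ± 0.06, edgeR adjusted p = 0.219).

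Of 11 other elongation and desaturation genes, 5 were negative and 6 positive (median 0.03), with Fads6 at 0.21 ± 0.09 (edgeR adjusted p = 0.282) and Cyb5r3, which passes electrons to the desaturases by way of cytochrome b5, at 0.15 ± 0.11 (edgeR adjusted p = 0.529). Of 18 other esterification genes, 12 were negative (median −0.06), with 5 at an unadjusted p under 0.05, 4 of them lower, where 16.3% of all tested genes had such a p and 7.75% were lower. Fitm2, which helps lipid droplets form, had 109.8 ± 9.99 and 89.0 ± 16.0 CPM (−0.30 ± 0.11, edgeR adjusted p = 0.199). Agpat6, the older symbol of the glycerol-3-phosphate acyltransferase gene Gpat4, had 351 ± 5.74 and 309.8 ± 27.7 CPM (−0.18 ± 0.07, edgeR adjusted p = 0.200). All of its GRMAC libraries, at most 330.2 CPM, lay below all of its controls, at least 345 CPM. It was the 1 gene of these 18 without overlap, against 4.05% of all genes.

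When GRflox 4 and GRMAC 4 were left out together, 14 of the 32 genes had an unadjusted p under 0.05 (6 higher and 8 lower in GRMAC), against 18.2% of all tested genes, and 0 of 32 passed after adjustment. Those libraries had earlier been singled out because they lay against their genotype on other liver genes, so this choice favours larger differences. The lowest adjusted p were then those of Agpat3 (−0.26, edgeR adjusted p = 0.0842), Elovl5 (−0.42, edgeR adjusted p = 0.0850) and Acacb (−0.47, edgeR adjusted p = 0.118).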

How the data were processed

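Polyadenylated RNA from whole liver was sequenced in 5 GRflox and 5 GRMAC libraries. The authors deposited a table of read counts per gene, with 1 RefSeq transcript and 1 symbol per row. HISAT2 2.1.0, DESeq2 1.24.0 and the build mm10 are named in the submitters' processing notes; the counting program, its treatment of strand, introns and shared reads, and the annotation version are not given in the sources used here. A further deposited table gives per the file headers, log2 fold changes and adjusted p-values of the knockout over the control; its 10 columns of values per library were not used. Columns were matched to samples by genotype and number in the sample titles.

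Genes were filtered with filterByExpr of edgeR 4.0.16 (12558 of 19764 kept), scaled by TMM and tested by robust quasi-likelihood F-tests of edgeR (R 4.3.3). P-values were adjusted by Benjamini-Hochberg over all tested genes, with a threshold of 0.05. Standard errors are the size of the log2 fold change over the root of F, and 95% intervals are not adjusted for the number of genes. RPKM is CPM per kilobase of the GENCODE M21 transcript matched by RefSeq accession. Log2 CPM used a prior count of 2. Coordinates count the first base as 1.

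Genes given in every library were those called by edgeR or in the authors' table (none), the 2 with the lowest p per class, and Fasn, Srebf1, Scd1 and Dgat2; of each other pathway list, called genes or else the 2 with the lowest p were named. The 32 genes and the lists were chosen with earlier results of these data known. Other settings were DESeq2 1.42.0, limma-voom (limma 3.58.1, robust), other filters and scalings, a replicate block, leaving out libraries and, chosen after seeing the data, correcting for exonic length and GC (splines with 5 degrees of freedom). Scripts were tested on simulated data. G6pdx, Cfd, Lipe, Lrat and Hbb-bt of the lists are not analysed here, and some results on listed genes are not reported here.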

Additional observations from a re-analysis of the deposited data

Results flagged for a closer look

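Of 86 groups of 5 values examined (the 32 genes, 8 other pathway genes and 3 class medians in each genotype), 5 held 1 value far from the other 4, where chance gives about 4.3 (1 in 20). Scd1 was at 3067 CPM in GRflox 3, against 1291 to 1764 CPM in the other GRflox libraries. In GRMAC 4, Khk was at 230.2 CPM, below 277 to 295 CPM in the other GRMAC libraries, and Gpam was at 179 CPM, above 131 to 140.0 CPM in the others. Fads1 was at 491 CPM in GRMAC 1, above 436 to 445 CPM in the others. Agpat6 was at 263 CPM in GRMAC 3, below 312 to 330.2 CPM in the others.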

How the results depend on the processing

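The count of 0 among the 32 genes held under every setting tried. Class medians moved by less than the pooled SD between libraries of the class median of centred log2 CPM. Within a genotype that SD was 0.0831 to 0.126, so a median near 0 could change sign within it. The median of synthesis (0.03) turned to −0.03 without GRflox 1. The count over all genes moved from 22 to 447 with DESeq2, 8 with edgeR without robust estimation, 34 without a filter, 68 without GRflox 4 and GRMAC 4, 9 with the GC and length correction and 5 (GRflox 3 or GRflox 5) to 47 (GRMAC 5) when 1 library was left out; the cause was not tested. No gene named by the rule reversed its direction; 355 of their values kept their side of the threshold, and Nr1h3 (−0.16, adjusted p = 0.0153) passed with DESeq2 only. With the replicate number as a block, 81 genes passed and 0 of the 32. Deviations of same-numbered libraries from their genotype means had correlations from −0.11 to 0.17, with 2 of 5 over 0.1. In each genotype 2 libraries were closest to the one sharing their number. Whether the numbers mark pairs was not tested. The count of genes correlated with Fasn was 0 with genotype means subtracted and 0 to 3 when 1 library was left out. Genes near 0 changed sign under 1 or more settings: Pnpla3, Lpin3 and Elovl1 under several, Acly and Fads1 without GRflox 4, Mlxipl without GRMAC 4, Acly, Fads1, Fads3, Lpin3 and Mlxipl without GRflox 4 and GRMAC 4 together, Thrsp without GRflox 1, Agpat2 without GRflox 2 and Acaca without GRflox 3.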
